A study of Mus musculus with 4 samples.

Results

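The p53 targets and intrinsic apoptosis genes are 33 genes, given as a list of symbols: the p53 gene itself, genes that p53 is known to activate, and the Bcl2 family, caspases and mitochondrial factors of the intrinsic death pathway. All 33 were found by symbol, each with 1 entry, in a table of 48395 genes, and all are annotated as protein-coding. FPKM, the fragments counted for a gene scaled to its length and to the mapped fragments of the library, were measured in 4 libraries of green fluorescent cells sorted from the cortex of ICR mouse embryos, 2 in each of 2 groups. In the Zeb1 group, the cortex was electroporated in utero at E14.5 with a CAG-Zeb1-IRES-ZsGreen plasmid, which carries the zinc-finger repressor Zeb1 and the green fluorescent protein ZsGreen behind the ubiquitous CAG promoter. In the control group the plasmid was CAG-IRES-ZsGreen, without Zeb1. Both groups were collected 48 hours later, at embryonic day 16.5, dissociated with papain and sorted for green fluorescence, and RNA was extracted with Trizol. Expression from the plasmid is transient, and FPKM do not separate plasmid-borne from endogenous Zeb1. The CAG promoter is not limited to 1 cell type, and the labels do not say whether the libraries came from separate litters or pooled embryos, so a p-value here reflects no more than how far these 4 libraries scatter, which may be technical.

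In an undamaged cell, p53 protein is held low by the ubiquitin ligase Mdm2, whose own gene p53 activates. When p53 is released, its targets stop the cell cycle, help repair DNA, or push the cell towards death through the mitochondria. There the BH3-only proteins relieve or activate Bax and Bak1, which open the outer membrane unless Bcl2, Bcl2l1 or Mcl1 restrain them, and released cytochrome c assembles with Apaf1 and caspase 9 into the apoptosome. The pathway removes many cells of the developing cortex, and it acts largely through protein stability and cleavage, which RNA levels do not show.

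Zeb1 had 5622 and 6227 FPKM in the Zeb1 libraries, against 35.2 and 18.6 FPKM in the control libraries. This separates the libraries as labelled (log2 fold change 7.80, limma adjusted p = 0.0192), though the call was lost with any 1 library left out, with no filter on low genes and with the replicate number as a block. The projection neuron genes Neurod6 and Neurod2 were high in every library, Neurod6 with 451 and 376 FPKM in Zeb1 cells and 425 and 495 FPKM in control cells. Microglial genes were also present in every library, to unequal degrees. The 12 genes of a microglial marker list summed to 1008 and 534 FPKM in Zeb1 replicates 1 and 2, against 542 and 139 FPKM in control replicates 1 and 2. None of the 12 was at 0 in any library, 0 passed the test, and for 5 of them both Zeb1 libraries were above both controls, against 18.2% of all genes tested. Radial glia genes summed to 1261 and 913 FPKM in Zeb1 cells, against 821 and 786 FPKM in control cells, led by Vim. The groups overlapped for 4 of these 6 genes (Pax6, Sox2, Hes5 and Fabp7), and Fabp7 had a log2 fold change of -0.12. Both Zeb1 libraries were above both controls for only 2, Vim (0.75) and Slc1a3 (0.19). The higher sum thus does not describe all 6 genes. Intermediate progenitor genes summed to 267 and 210 FPKM in Zeb1 cells, against 238 and 274 FPKM in control cells. Projection neuron genes summed to 1383 and 1334 FPKM in Zeb1 cells, against 1384 and 1635 FPKM in control cells. Red cell genes summed to 138 and 49.6 FPKM in Zeb1 cells, against 64.1 and 55.3 FPKM in control cells. Lists of endothelial cells, pericytes and meningeal fibroblasts summed to at most 8.58 FPKM in any library, with Dcn at 0 in Zeb1 replicate 2 and Lum at 0 in control replicate 1, and lists of interneurons and oligodendrocyte precursors to at most 36.2 FPKM. Absolute depth is unknown from FPKM.

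Promoter sequence was searched for the p53 consensus decamer, by that name, which reads the same on both strands, and for the E-box CAGGTG, the motif bound by ZEB1, on either strand (CACCTG). RefSeq start sites on GRCm38.p6 were matched for 28 members with 38 windows, each running from 250 bases before to 50 bases after the start. Perp, Pmaip1, Tnfrsf10b, Trp53inp1 and Zmat3 were not matched. The decamer was in 10 of 38 member windows (26.3%), against 8.36% of all 32851 windows, and belonged to 9 genes. Both Aen windows overlap and hold the same decamer. Many members were listed as known p53 targets, so a higher share than over all windows is not an independent result. The E-box was in 6 of 38 member windows (15.8%), against 20.2% of all windows, and belonged to Aen, Bbc3, Cdkn1a, Diablo and Plk3. No decamer overlapped an E-box. A pair of decamers separated by at most 13 bases was in the windows of 20 genes of 27025. Cdkn1a was the only member among them, and its other window, starting at chr17:29093519, held no decamer.

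The 250 bases upstream of a start are shown for 5 members, with decamers and E-boxes in capitals. Cdkn1a, Mdm2 and Gadd45a are shown because they hold decamers, Bbc3 because its window holds a pair of E-boxes, and Plk2, the member with the largest fold change, because its window holds neither motif. They lie at chr17:29090729-29090978 on the plus strand for Cdkn1a, chr10:117710759-117711008 on the minus strand for Mdm2, chr6:67037408-67037657 on the minus strand for Gadd45a, chr7:16310011-16310260 on the plus strand for Bbc3, where the start is an internal one within the gene, and chr13:110394794-110395043 on the plus strand for Plk2.
Cdkn1a: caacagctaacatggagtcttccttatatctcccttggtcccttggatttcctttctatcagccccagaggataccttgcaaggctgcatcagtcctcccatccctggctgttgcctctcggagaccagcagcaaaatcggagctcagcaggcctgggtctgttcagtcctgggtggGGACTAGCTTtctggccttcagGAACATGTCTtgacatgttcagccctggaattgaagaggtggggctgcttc
Mdm2: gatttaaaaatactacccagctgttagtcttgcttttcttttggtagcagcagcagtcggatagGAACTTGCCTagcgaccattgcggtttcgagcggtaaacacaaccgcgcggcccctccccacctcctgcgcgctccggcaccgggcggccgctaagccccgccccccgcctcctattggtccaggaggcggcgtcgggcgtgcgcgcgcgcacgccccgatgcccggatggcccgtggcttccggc
Gadd45a: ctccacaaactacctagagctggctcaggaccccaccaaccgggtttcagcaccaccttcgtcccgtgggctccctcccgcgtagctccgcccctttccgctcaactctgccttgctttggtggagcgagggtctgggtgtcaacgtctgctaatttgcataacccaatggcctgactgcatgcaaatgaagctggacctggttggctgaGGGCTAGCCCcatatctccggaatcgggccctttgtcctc
Bbc3: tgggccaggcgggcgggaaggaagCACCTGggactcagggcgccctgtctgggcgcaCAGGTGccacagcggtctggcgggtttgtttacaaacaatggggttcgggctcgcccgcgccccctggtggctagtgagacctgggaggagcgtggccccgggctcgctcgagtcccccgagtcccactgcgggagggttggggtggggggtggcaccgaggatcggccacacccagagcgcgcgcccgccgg
Plk2: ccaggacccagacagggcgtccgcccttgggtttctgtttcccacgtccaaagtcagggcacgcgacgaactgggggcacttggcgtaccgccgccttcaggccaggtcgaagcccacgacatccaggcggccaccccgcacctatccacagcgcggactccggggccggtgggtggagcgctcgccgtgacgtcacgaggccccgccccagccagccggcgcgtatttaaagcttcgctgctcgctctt
These are matches of letters in short windows, and binding was not measured.

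Of the 33 genes, 29 averaged 1 FPKM or more across all libraries and were tested with limma on log2(FPKM + 1), among 14330 genes in all. At an adjusted p under 0.05, 0 of the 29 passed, against 0.195% of all genes tested. At an unadjusted p under 0.05, 3 members were higher in Zeb1 cells (Plk2, Apaf1 and Mcl1) and 1 was lower (Bid), against 3.23% and 3.68% of all genes tested. The median log2 fold change of the 29 was 0.13, against 0.00 over all genes tested, and 21 of them (72.4%) were above 0, against 50.1% of all genes. Both Zeb1 libraries were above both control libraries for 9 members and below them for 4, against 18.2% and 19.5% of all genes tested. The 29 log2 fold changes ran from -0.69 for Bid to 1.11 for Plk2, and the smallest adjusted p was 0.580, for Plk2. In sorted bulk samples, fewer cells that express a gene and less RNA per cell cannot be told apart.

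**Figure D1:**
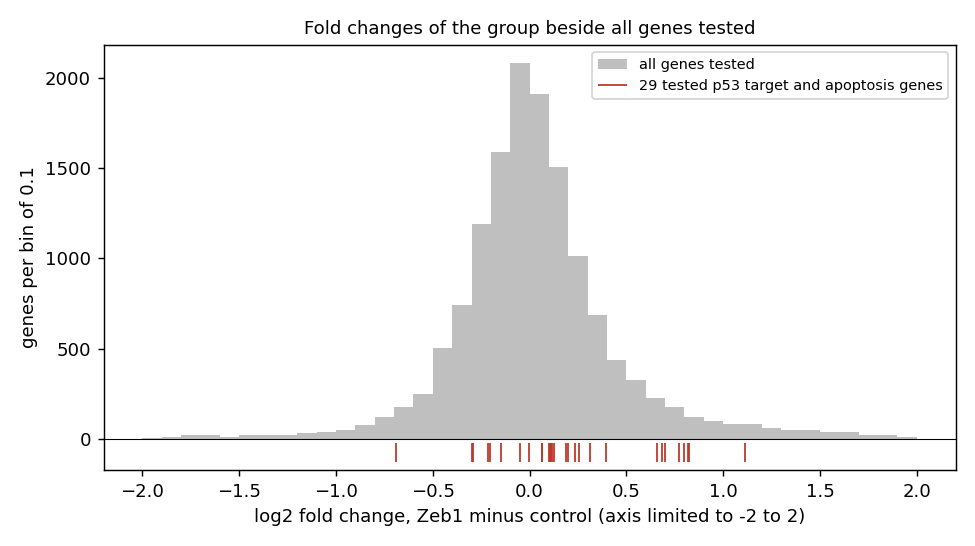
Histogram of the log2 fold changes (Zeb1 minus control, horizontal axis) of 14330 genes tested, in bins of 0.1 and cut at -2 and 2, with the 29 tested p53 target and apoptosis genes as red marks below it. The members lie between -0.69 and 1.11, with 21 of 29 above 0.

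**Figure D2:**
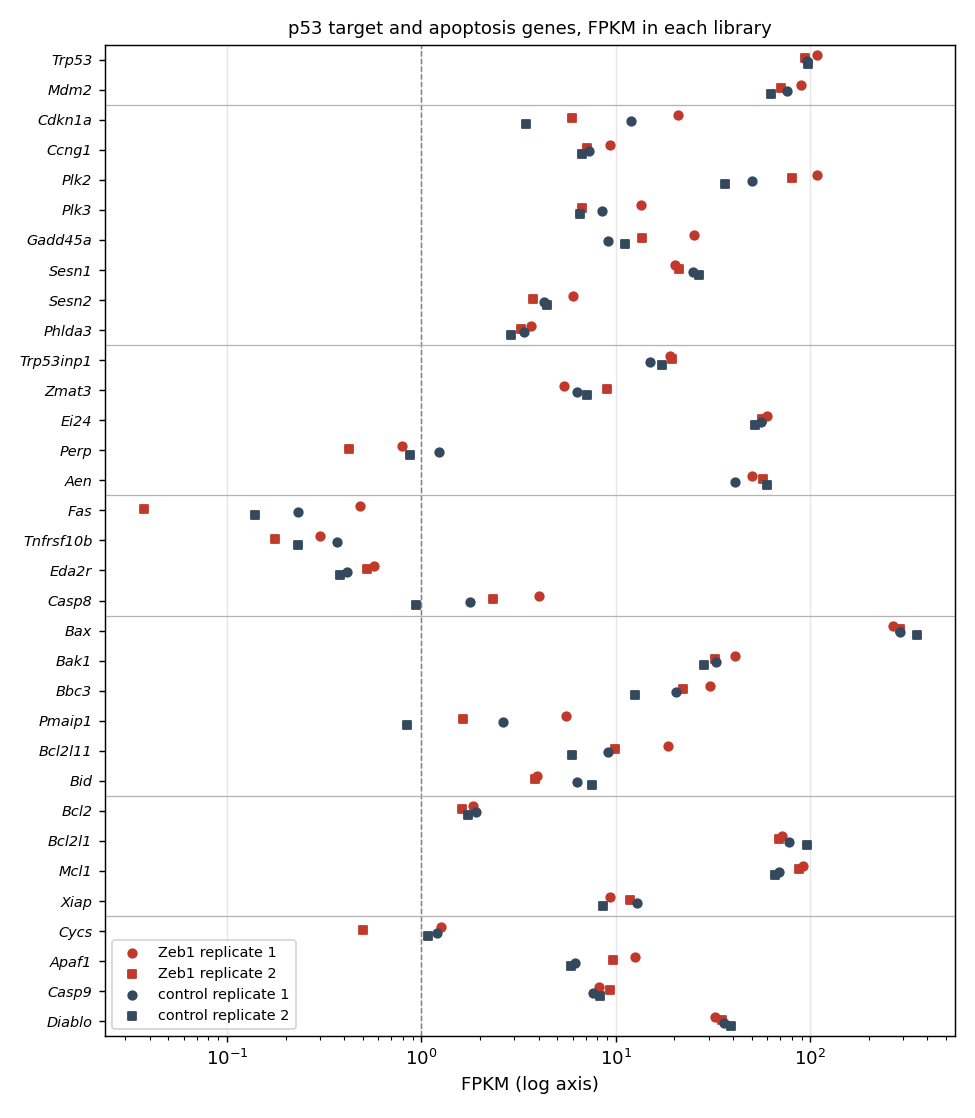
FPKM (horizontal log axis) of all 33 genes in the 2 Zeb1 libraries (red) and the 2 control libraries (dark), by role from top to bottom. Circles are replicate 1 and squares replicate 2, and the dashed line is at 1 FPKM. Bax is the most abundant member, and Perp, Fas, Tnfrsf10b and Eda2r average under 1 FPKM.

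The p53 gene Trp53 itself was abundant and close to level between the groups, with 108 and 93.7 FPKM in Zeb1 cells, against 95.9 and 97.1 FPKM in control cells. Its log2 fold change was 0.06, with a 95% interval of -0.35 to 0.48 (limma adjusted p = 0.941). Mdm2, its negative regulator and target, had 89.2 and 70.9 FPKM in Zeb1 cells, against 76.1 and 62.9 FPKM in control cells. The groups overlapped, and the log2 fold change was 0.20 (interval -0.35 to 0.75). Among all members these are the second and the fifth most abundant on the FPKM scale, which allows for gene length.

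Among 8 targets of cell cycle arrest, repair and stress, 0 passed over all genes. A positive log2 fold change was seen in 7 (87.5%), against 50.1% of all genes tested. Replicate 1 was above replicate 2 in both groups for 5 of the 8 (62.5%), against 35.9% of all genes tested. Between Zeb1 replicate 2 and control replicate 1 alone, a pair chosen after the data were seen, 3 of the 8 kept their sign. The median there was -0.09, against -0.06 over all genes tested. That pair leaves out the libraries where the median of all tested members was highest and lowest, so a smaller median was partly set by its choice. Plk2, a polo-like kinase of chromosome 13 (110395044 to 110400844, GRCm38) that in neurons also tunes synapses, had 108 and 80.7 FPKM in Zeb1 cells, against 50.4 and 36.3 FPKM in control cells. Both Zeb1 libraries stood above both controls, and the means were 94.6 ± 19.7 and 43.3 ± 9.96 FPKM (SD, n = 2 each), a ratio of 2.18. The log2 fold change was 1.11 with a standard error of 0.26 and an interval of 0.40 to 1.82. It did not pass over all genes (limma adjusted p = 0.580), and it was 0.88 to 1.34 with any 1 library left out.

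Cdkn1a, which encodes the cyclin-dependent kinase inhibitor p21, had 20.9 and 5.95 FPKM in Zeb1 cells, against 11.98 and 3.46 FPKM in control cells. The difference within each group was larger than that between them: replicate 1 exceeded replicate 2 by 1.66 (Zeb1) and 1.54 (control) on the log2 scale, and the log2 fold change was 0.70 with an interval of -1.57 to 2.97. The libraries ranked as the microglial sum ranked them, and its part in the result was not tested. Gadd45a, a stress sensor that acts in DNA repair and growth arrest, had 25.1 and 13.6 FPKM in Zeb1 cells, against 9.11 and 11.1 FPKM in control cells. Zeb1 replicate 1 was far above the other 3 libraries, and the log2 fold change of 0.82 (interval -0.12 to 1.76) was 0.40 without it. By 50-base words, 15.6% of the Gadd45a transcript sequence also lies in E230016M11Rik on the opposite strand, a noncoding gene with 2.41 and 1.23 FPKM in Zeb1 cells, against 0.443 and 0.607 FPKM in control cells, and reads of the pair cannot be told apart without strand.

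The other arrest and stress targets differed less. Sesn1, a sestrin that restrains mTORC1 signalling, had 20.2 and 21.2 FPKM in Zeb1 cells, against 24.8 and 26.6 FPKM in control cells. Both Zeb1 libraries were below both controls, with a log2 fold change of -0.30 (interval -0.67 to 0.07). Its relative Sesn2 had 6.01 and 3.75 FPKM in Zeb1 cells, around the 4.26 and 4.40 FPKM of control cells. Plk3 had 13.4 and 6.70 FPKM in Zeb1 cells, against 8.51 and 6.55 FPKM in control cells, and Zeb1 replicate 1 alone stood out. Ccng1, a cyclin G gene among the strongest p53 targets in mouse tissues, had 9.27 and 7.06 FPKM in Zeb1 cells, against 7.30 and 6.67 FPKM in control cells. Phlda3, which restrains Akt at the membrane, had 3.67 and 3.25 FPKM in Zeb1 cells, against 3.38 and 2.88 FPKM in control cells. The log2 fold changes of these last 4 genes were between 0.11 (Phlda3) and 0.31 (Plk3), with intervals that include 0.

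Of 5 death-promoting targets outside the Bcl2 family, 4 were tested and 0 passed, with log2 fold changes of 0.07 to 0.24. Trp53inp1, a p53-induced nuclear protein that also acts in autophagy, had 18.9 and 19.4 FPKM in Zeb1 cells, against 15.1 and 17.3 FPKM in control cells. The 2 groups did not overlap, and the log2 fold change was 0.24 (interval -0.16 to 0.63). Ei24, a protein of the endoplasmic reticulum, had 59.8 and 56.1 FPKM in Zeb1 cells, against 55.7 and 51.8 FPKM in control cells, also without overlap. Aen, an apoptosis-enhancing nuclease, had 49.8 and 56.8 FPKM in Zeb1 cells, inside the 41.0 and 60.0 FPKM of control cells. Zmat3, an RNA-binding protein, had 5.44 and 9.01 FPKM in Zeb1 cells, on either side of the 6.29 and 7.07 FPKM of control cells. The membrane protein gene Perp was below the level for testing, with 0.793 and 0.422 FPKM in Zeb1 cells, against 1.23 and 0.871 FPKM in control cells.

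The death receptors Fas and Tnfrsf10b, and the receptor Eda2r, were below the level for testing. Fas had 0.485 and 0.0373 FPKM in Zeb1 cells, against 0.232 and 0.140 FPKM in control cells. Tnfrsf10b, the TRAIL receptor, had 0.303 and 0.177 FPKM in Zeb1 cells, against 0.368 and 0.232 FPKM in control cells. Eda2r, the ectodysplasin A2 receptor, had 0.568 and 0.527 FPKM in Zeb1 cells, against 0.412 and 0.379 FPKM in control cells. These 3 were not tested, and only Eda2r did not overlap between the groups. Casp8, the initiator caspase that Fas and Tnfrsf10b recruit, had 4.03 and 2.34 FPKM in Zeb1 cells, against 1.77 and 0.933 FPKM in control cells. Both Zeb1 libraries were above both controls, with a log2 fold change of 0.83 (interval -0.15 to 1.80, limma adjusted p = 0.749). With a pseudocount of 0.1 in place of 1 it was 1.19. Gm20257, which shares 4.37% of the 50-base words of Casp8, had 17.4 FPKM in Zeb1 replicate 1 and 0.261 FPKM in Zeb1 replicate 2. It had 0.338 and 0.269 FPKM in control cells, and its part in the Casp8 values was not tested. Casp8 was also higher in replicate 1 than in replicate 2 of both groups, by 0.59 in Zeb1 and 0.52 in control cells on the log2 scale, as were the microglial sums given above. Their part was not tested.

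The Bcl2 family showed both directions among its pro-apoptotic members. Bid, the BH3-only protein that caspase 8 cleaves to link the receptors to the mitochondria, had 3.92 and 3.85 FPKM in Zeb1 cells, against 6.34 and 7.496 FPKM in control cells. It was the lowest member by fold change, with means of 3.89 ± 0.0492 and 6.92 ± 0.819 FPKM (SD, n = 2 each) and a ratio of 0.562. The log2 fold change was -0.69 with a standard error of 0.17 and an interval of -1.17 to -0.22, and it did not pass over all genes (limma adjusted p = 0.5996). Leaving out any 1 library gave -0.80 to -0.59. Bid lies on chromosome 6 (120891930 to 120916853) and shares 17.7% of its exonic bases with Bcl2l13 on the opposite strand, which had 28.99 and 29.01 FPKM in Zeb1 cells, against 32.0 and 28.8 FPKM in control cells.

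The other 3 BH3-only genes among the members had higher means in Zeb1 cells than in control cells. Bbc3, which encodes PUMA, had 30.3 and 22.04 FPKM in Zeb1 cells, against 20.4 and 12.5 FPKM in control cells. The groups did not overlap but lay close, and the log2 fold change was 0.66 (interval -0.20 to 1.52, limma adjusted p = 0.764). Bcl2l11, which encodes BIM, had 18.5 and 9.85 FPKM in Zeb1 cells, against 9.08 and 5.95 FPKM in control cells, a log2 fold change of 0.80 (interval -0.26 to 1.86). Zeb1 replicate 2 was little above control replicate 1. Pmaip1, which encodes NOXA, had 5.51 and 1.64 FPKM in Zeb1 cells, against 2.62 and 0.847 FPKM in control cells, and the groups overlapped. All 3 were lower in replicate 2 of both groups.

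Of the effectors Bax and Bak1, Bax was the most abundant gene of the family. Bak1 averaged 33.6 FPKM over all libraries, below Bcl2l1 (78.4 FPKM) and Mcl1 (78.3 FPKM). Bax had 265 and 287 FPKM in Zeb1 cells, against 287 and 353 FPKM in control cells, with a log2 fold change of -0.20 (interval -0.72 to 0.31). Bak1 had 41.1 and 32.3 FPKM in Zeb1 cells, against 32.6 and 28.4 FPKM in control cells, with 0.25 (interval -0.26 to 0.77). Bax made up 86.6% and 89.9% of their summed FPKM in Zeb1 cells, against 89.8% and 92.5% in control cells. The 4 BH3-only genes among the members summed to 58.2 and 37.4 FPKM in Zeb1 cells, against 38.4 and 26.8 FPKM in control cells, and the groups overlapped. That sum leaves out BH3-only genes that are not members, so it does not describe the whole class. Within that sum, the share of Bid was 6.73% and 10.3% in Zeb1 cells, against 16.5% and 28.0% in control cells.

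Among the survival genes, Mcl1 and Bcl2l1 differed in opposite directions. Mcl1, a short-lived inhibitor that cortical progenitors and newborn neurons need, had 91.3 and 87.0 FPKM in Zeb1 cells, against 69.1 and 66.0 FPKM in control cells. The means of 89.1 ± 2.98 and 67.5 ± 2.23 FPKM (SD, n = 2 each) did not overlap, with a ratio of 1.32. The log2 fold change was 0.40 with a standard error of 0.13 (interval 0.03 to 0.76), short of the threshold over all genes (limma adjusted p = 0.701). It stayed between 0.36 and 0.43 with any 1 library left out. Bcl2l1, which encodes BCL-XL, had 71.5 and 68.9 FPKM in Zeb1 cells, against 77.6 and 95.8 FPKM in control cells, a log2 fold change of -0.29 (interval -0.76 to 0.17). Bcl2 was low, with 1.85 and 1.61 FPKM in Zeb1 cells, against 1.91 and 1.74 FPKM in control cells. Xiap, which binds and inhibits caspases, had 9.28 and 11.8 FPKM in Zeb1 cells, within the 12.8 and 8.56 FPKM of control cells. The summed FPKM of Bcl2, Bcl2l1 and Mcl1 was 165 and 158 in Zeb1 cells, against 149 and 163 in control cells, so the sum overlapped while its make-up did not. Mcl1 held 55.4% and 55.2% of it in Zeb1 cells, against 46.5% and 40.3% in control cells.

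**Figure D3:**
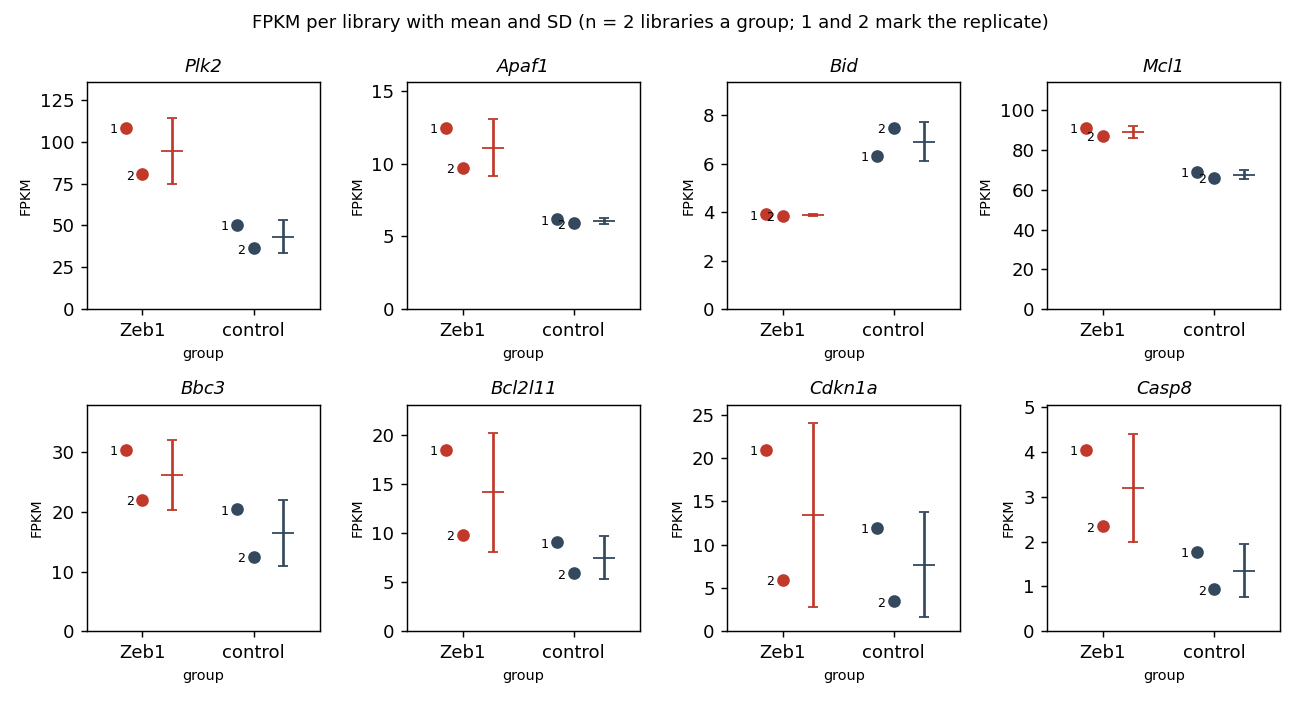
FPKM of 8 members in each library, Zeb1 (red, left) and control (dark, right) with the replicate number beside each point. Bars give the mean and SD of 2 libraries. Plk2, Apaf1, Mcl1 and Bid are the 4 members at an unadjusted limma p under 0.05, and Cdkn1a is the one whose groups overlap.

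In the apoptosome, Apaf1, the scaffold that cytochrome c assembles, had 12.5 and 9.69 FPKM in Zeb1 cells, against 6.18 and 5.90 FPKM in control cells. The control libraries were within 0.06 of each other on the log2 scale and both Zeb1 libraries lay above them, with means of 11.1 ± 1.96 and 6.04 ± 0.198 FPKM (SD, n = 2 each) and a ratio of 1.83. The log2 fold change was 0.77 with a standard error of 0.18 and an interval of 0.26 to 1.28, and it did not pass over all genes (limma adjusted p = 0.587). Leaving out any 1 library gave 0.60 to 0.94. Apaf1 lies on chromosome 10 (90989311 to 91082770). Casp9, its caspase partner, had 8.17 and 9.35 FPKM in Zeb1 cells, against 7.597 and 8.29 FPKM in control cells, with a log2 fold change of 0.13 (interval -0.31 to 0.56). Diablo, a mitochondrial protein that displaces Xiap from caspases, had 32.2 and 34.97 FPKM in Zeb1 cells, against 35.8 and 38.9 FPKM in control cells, with -0.15. Cycs, the cytochrome c gene, was listed at only 1.26 and 0.499 FPKM in Zeb1 cells, against 1.20 and 1.08 FPKM in control cells. Of its 50-base words, 26.1% recur in other genes, most of them in Gm10053, so its level is uncertain. Gm10053 itself was listed at only 0.134 and 0 FPKM in Zeb1 cells, against 0.0665 and 0.0661 FPKM in control cells.

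**Figure D4:**
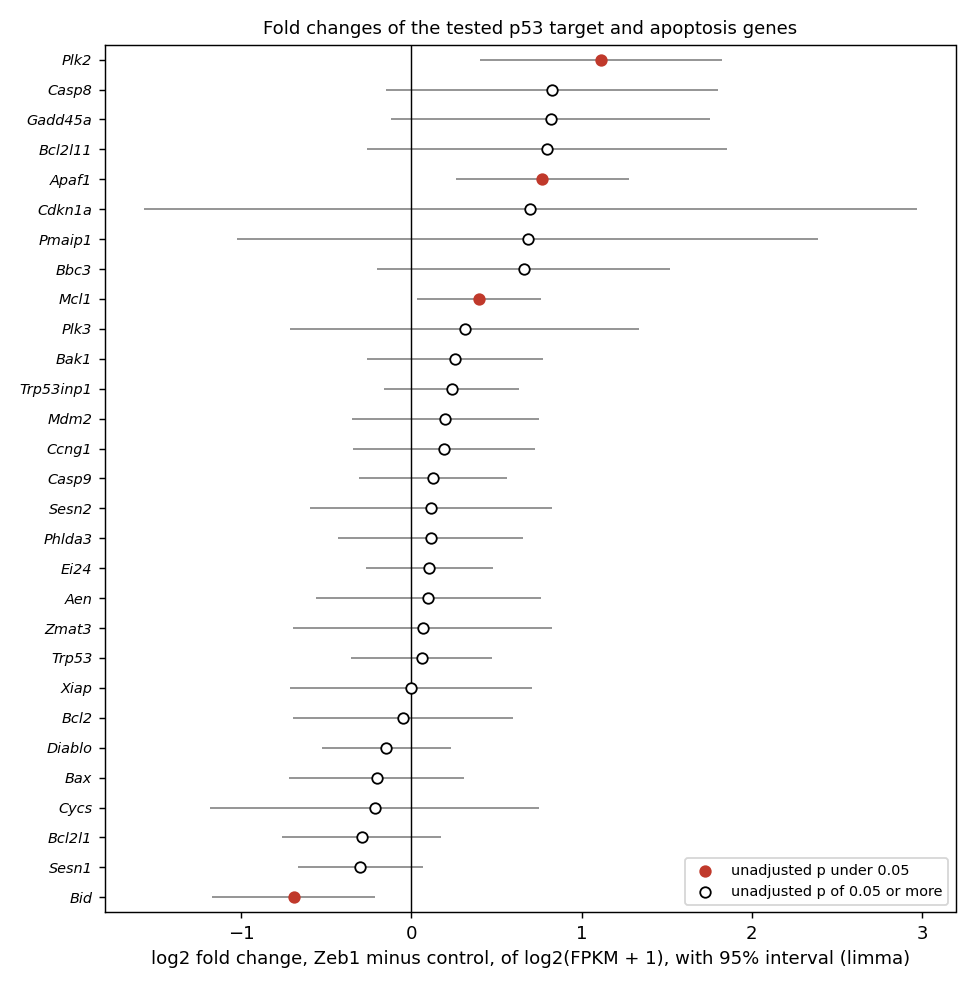
Log2 fold changes (Zeb1 minus control, horizontal axis) of the 29 tested genes with 95% intervals from limma, highest at the top. Filled red points mark the 4 genes at an unadjusted p under 0.05, and 0 of 29 passed after adjustment over all genes.

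Other genes of the pathway were read from a list of 61, of which 60 were in the table and 51 tested. Of these 0 passed over all genes. At an unadjusted p under 0.05, 1 was higher and 1 lower (3.92% of the 51), below the 6.92% of all genes tested. Their median log2 fold change was 0.05, against 0.00 over all genes tested. Bnip3, a mitochondrial BH3-like protein of mitophagy, had 4.32 and 4.11 FPKM in Zeb1 cells, against 6.69 and 6.91 FPKM in control cells. The replicates of each group lay close together, with a log2 fold change of -0.58 (interval -1.01 to -0.15, limma adjusted p = 0.606). Trp53i11, a p53-inducible gene, had 165 and 165 FPKM in Zeb1 cells, against 125 and 125 FPKM in control cells, with 0.40 (interval 0.02 to 0.77, limma adjusted p = 0.705). Next by p came Tradd, an adaptor of the TNF receptor (log2 fold change -0.59), the DNA damage sensor Ddb2 (0.40), the effector caspase Casp6 (-0.37) and Tigar, a p53-inducible regulator of glycolysis (-0.32). Over the whole list, both Zeb1 libraries lay above both controls for 13 of 51 genes and below them for 11 (47.1% together), against 18.2% above and 19.5% below among all genes tested.

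Many members differed between the replicates of a group in the same direction. Replicate 1 was above replicate 2 in both groups for 16 of the 29 tested members (55.2%), against 35.9% of all genes tested. The median difference of replicate 1 over replicate 2 was 0.21 in Zeb1 and 0.08 in control cells on the log2 scale, against 0.11 in Zeb1 and 0.02 in control cells over all genes tested. Zeb1 replicate 2 and control replicate 1 had the closest microglial sums (534 and 542 FPKM), and the comparison of this pair alone, without a test, was chosen after the data were seen. In it the median over the 29 members was -0.03, against -0.06 over all genes tested. The pair leaves out Zeb1 replicate 1 and control replicate 2. In these the median deviation of the 29 members from their gene means was highest (0.19) and lowest (-0.14). A smaller median in the pair is thus partly set by its choice, and its cause was not tested. On the log2(FPKM + 1) scale, Plk2 was 0.67 higher in Zeb1 replicate 2 than in control replicate 1. Apaf1 was 0.57 higher, Mcl1 0.33 higher and Bid at -0.60. Bcl2l11 and Bbc3 were 0.11 higher each, Casp8 0.27 higher, and Cdkn1a and Pmaip1 were at -0.90 and -0.45, the opposite sign to their value over all libraries. Zeb1 replicate 1 had the highest sums of microglial, red cell and radial glia genes of the 4 libraries, and their part in the members' values was not tested.

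**Figure D5:**
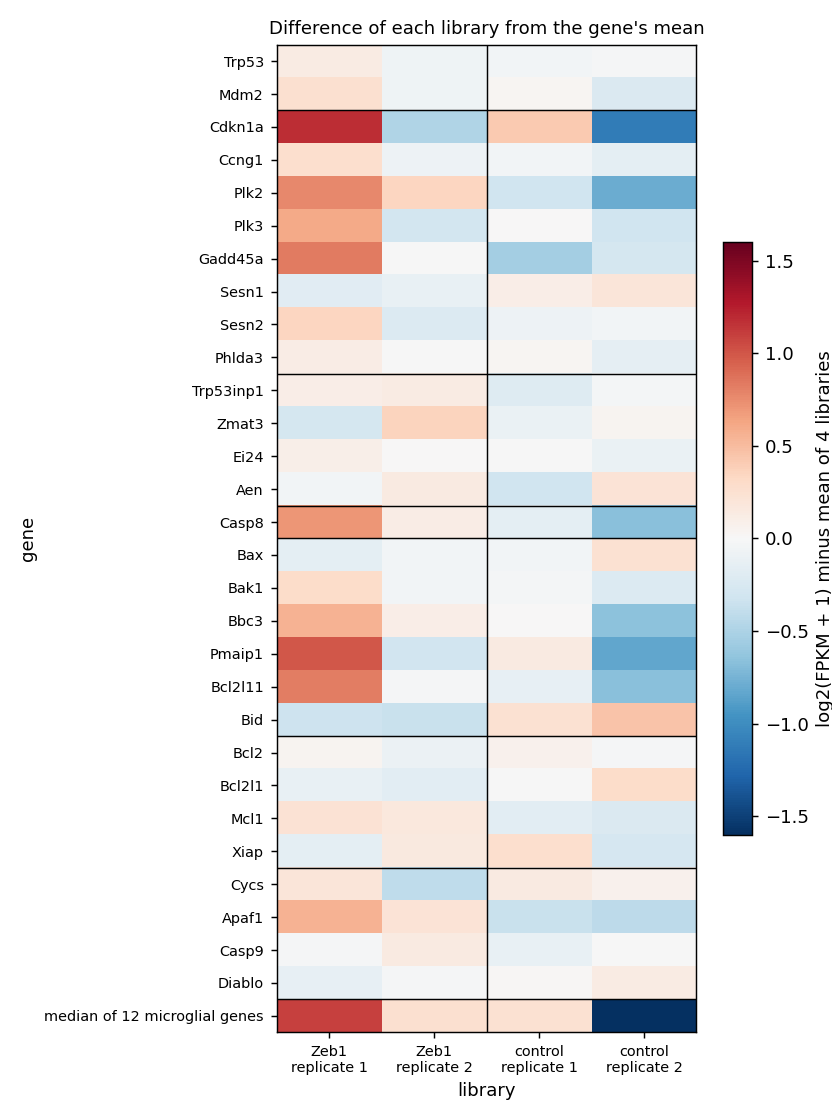
Difference of log2(FPKM + 1) in each library (columns, Zeb1 left) from the mean of the 4 libraries for the 29 tested members (rows, by role), with the median of 12 microglial genes in the last row. Red is above and blue below the mean. Cdkn1a and Pmaip1 are highest in Zeb1 replicate 1 and lowest in control replicate 2, as is the microglial median, while Bid is below its mean in both Zeb1 libraries.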

How the data were processed

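The authors deposited FPKM for every gene in each of the libraries. The submitters' processing notes name STAR, Cufflinks, DESeq2 and GRCm38, with neither versions nor roles, and whether counting used strand is not given in the sources used here. The table has 48395 genes and 1 emptied line. Symbols that a spreadsheet had turned into dates, 27 in all, were restored through gene identifiers, and start positions were raised by 1 to be 1-based. FPKM hold no absolute depth, so counting error cannot be given. Values of genes under 200 bp, searched only near a ratio of 1, gave a depth relative to control replicate 1 of 0.994 in Zeb1 replicate 1, 1.04 in Zeb1 replicate 2 and 1.01 in control replicate 2.

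Values were compared as log2(FPKM + 1) by a two-sided limma test with intensity trend, Zeb1 minus control, so low genes show less than their true fold. Genes averaging below 1 FPKM were left out, and Benjamini-Hochberg adjustment ran over the remaining 14330 with a threshold of 0.05. With 2 libraries a side, the smallest p an exact permutation test allows is 0.333. Tools were R 4.3.3, limma 3.58.1, statmod 1.5.0, Python 3.11.15 and matplotlib 3.10.9. The fit was tested on simulated data. The text names all members and the 6 other pathway genes of smallest p, besides marker genes, and genes that share sequence with a member, which were chosen after their values were seen. Members and lists were chosen with earlier results of these data known. Alternative settings varied the pseudocount (0.1, 0.5), the filter (none, 5 FPKM), gene types, scaling, moderation, a replicate block and the libraries included. Shared sequence was counted in 50-base words of GENCODE transcripts.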

Additional observations from a re-analysis of the deposited data

How the results depend on the processing

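Of all genes, 28 passed in the main comparison, 1 with no filter, 3 among protein-coding genes alone, and 0 whichever library was left out. No member passed under any setting run, and the smallest adjusted p of a member was 0.257, for Plk2 among protein-coding genes. At an unadjusted p under 0.05 there were 4 members in the main comparison, 2 with a mean of at least 5 FPKM, where fewer genes are tested, and 0 to 4 with a library left out, 0 without control replicate 2, 1 without Zeb1 replicate 1 and 2 without control replicate 1. The replicate numbers are not stated to pair the libraries: the replicate differences of the groups correlated with r = 0.08 across all genes tested and 0.37 across the 11916 protein-coding ones, the type of all members, and a fit with the replicate number as a block called 11 genes, with 7 members at an unadjusted p under 0.05 (Plk2, Apaf1, Bid, Cdkn1a, Casp8, Bbc3 and Bcl2l11), against 8.92% of all genes tested in that fit. Zeb1 itself did not pass with no filter, with the block, or with any library left out. The other settings moved none of these counts by over 1.5 times.

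The median log2 fold change of the members was -0.031 to 0.22 over the sets that left out a library or kept only Zeb1 replicate 2 and control replicate 1, the pair chosen after seeing the data. Over the same sets the sign turned for 15 members, whose values ran from -0.042 to 0.17 (Trp53), -0.10 to 0.36 (Mdm2), -0.90 to 1.53 (Cdkn1a), -0.042 to 0.36 (Ccng1), -0.31 to 0.76 (Plk3), -0.16 to 0.40 (Sesn2), -0.043 to 0.20 (Phlda3), -0.25 to 0.46 (Zmat3), -0.17 to 0.46 (Aen), -0.35 to 0.00013 (Bax), -0.0092 to 0.42 (Bak1), -0.45 to 1.33 (Pmaip1), -0.16 to 0.012 (Bcl2), -0.26 to 0.26 (Xiap) and -0.55 to 0.080 (Cycs). Only 9 of these 15 turned with a single library left out. Mdm2, Ccng1, Phlda3, Bax, Bak1 and Pmaip1 turned only in the chosen pair, which holds 1 library a group. Xiap, at -0.001 in the main comparison, was 0.000343 with a pseudocount of 0.1, 0.026 after rescaling to equal totals and 0.0051 with median-of-ratios scaling. The cause was not tested. With 2 libraries a group and unknown depth, a difference in a low gene may go undetected.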

Other observations

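Gm20257, which shares 4.37% of the 50-base words of Casp8, was chosen after its values were seen. It had 17.4 and 0.261 FPKM in Zeb1 replicates 1 and 2, against 0.338 and 0.269 FPKM in control replicates 1 and 2, so it was high in a single library.

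Diablo shared 21.5% of its exonic bases with B3gnt4 on the opposite strand, and Bak1 18.2% with Ggnbp1 on the opposite strand. On the same strand, Diablo shared 19.3% of its exonic bases with Gm49027, and Bax 12.2% with Gm45808. Neither Gm49027 nor Gm45808 was among the deposited genes. Of the 50-base words of Diablo, 37.3% recur in other genes, against 8.51% for Bax, so both levels are uncertain to that extent. B3gnt4 had 0.373 and 0.616 FPKM in Zeb1 cells, against 0.614 and 0.622 FPKM in control cells. Ggnbp1 had 4.98 and 5.64 FPKM in Zeb1 cells, against 4.54 and 6.82 FPKM in control cells.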
